A study of Homo sapiens with 12 samples.

Results

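The response of HT1376 FOXP3 KO cells to IFNγ was measured in 6 RNA-seq libraries, 3 from untreated cells and 3 from cells treated with IFNγ, out of 12 libraries in the whole series. These 6 were taken by their labels as HT1376, FOXP3 KO and either untreated or IFNγ, and they carry the replicate numbers 11, 12 and 13 in each group. HT1376 is a human bladder cancer cell line. By the study's methods, the FOXP3 KO line was a single-cell clone made by CRISPR/Cas9 with guides to exon 2 of FOXP3. The control line, HT1376 CT, was described there as a clone made with a guide to luciferase. The labels of the control libraries say only WT, and the study's text names the control of its RNA-seq HT1376 CT. That these libraries went through Cas9 delivery and puromycin selection therefore rests on that text and not on the labels. IFNγ was given for 48 hours, and 100 ng/mL is the dose stated for this line in the same study. The other 6 libraries, 3 untreated and 3 with IFNγ, came from HT1376 CT and are used here only for comparison. Each genotype is represented by 1 clone, so loss of FOXP3 and other differences between clones cannot be told apart. Nothing in the labels says that replicates were separate cultures, so the p-values measure only the spread between these samples.

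IFNγ binds a receptor made of IFNGR1 and IFNGR2, whose kinases JAK1 and JAK2 activate transcription factors of the STAT family that bind GAS elements in promoters and switch on a first set of genes that includes the transcription factor IRF1. IRF1 and a complex that holds STAT2 and IRF9 act on a second element, the ISRE, and CIITA, itself a target, drives the MHC class II genes. In epithelial tumor cells the pathway is known for raising antigen presentation, chemokines for T cells, and checkpoint ligands such as PD-L1, the product of CD274.

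The KO libraries held 9054262 to 30680995 counts assigned to genes, and no pair of libraries of a group differed by as little as sampling noise. FOXP3 itself had at most 3 counts in every library of the series, so the knockout could not be checked at the RNA level. Of 20 urothelial and epithelial markers, 17 were above 3 counts in some KO library, with UPK1A, UPK3A and FOXA1 as the exceptions, and their summed level ran from 5494 to 6685 CPM (counts scaled to a common library size after TMM normalization) untreated and from 5301 to 6896 CPM with IFNγ. Of 10 T and NK cell markers, 9 had at most 3 counts in each KO library, including CD3D, CD3E and CD8A. Of 9 myeloid and B cell markers, 5 were that low, and the summed level of the list was 102 to 234 CPM untreated and 76.6 to 181 CPM with IFNγ in the KO line against 2.63 to 7.15 CPM in the CT libraries. Most of this sum in the KO line was 1 gene, CSF1R. It was at 128, 233 and 101 CPM untreated and at 85.5, 178 and 74.3 CPM with IFNγ. Of 9 fibroblast and endothelial markers, PECAM1 and VWF were at most 3 counts, and the summed level was 482 to 734 CPM untreated and 451 to 663 CPM with IFNγ in the KO line against 25.4 to 66.4 CPM in the CT libraries. The part of these genes in the results below was not tested. The libraries numbered 12 lay apart from the other 4 KO libraries on the first principal component, which held 32.1% of the variance, and counts without them are given beside the first count.

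IFNγ raised 236 genes in HT1376 FOXP3 KO cells, 0.978% of the 24131 tested, and lowered 1 gene, 0.00414% (edgeR quasi-likelihood test, Benjamini-Hochberg adjusted p under 0.05). At an unadjusted p under 0.05, 946 genes were higher and 349 lower. When the replicate number was kept as a block, with edgeR's bias-adjusted deviance (the blocked fit below), 793 genes were higher (3.29%) and 234 lower (0.970%), and all 236 genes were among the 793. Without either library numbered 12, a choice made after the data were seen, 298 genes were higher and 9 lower, and 228 of the 237 calls were kept. Each of the 236 genes had all 3 treated libraries above all 3 untreated ones in normalized CPM. Over all genes tested, 5.99% were separated this way upward and 4.79% downward. The calls ranged in robustness, since 147 of the 236 genes passed in all 6 fits that each left out 1 library and 61 passed in at most 2 of them.

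**Figure D1:**
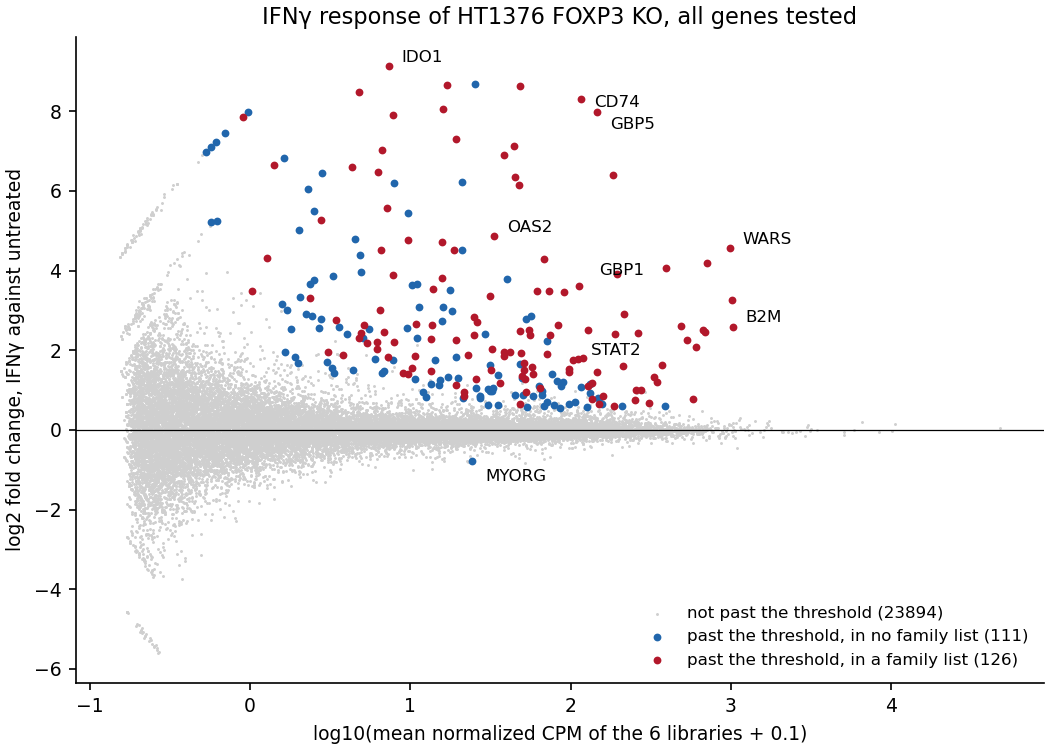
Each point is 1 of the 24131 genes tested in HT1376 FOXP3 KO, with the mean normalized CPM of the 6 libraries on the x axis (log10, with 0.1 added) and the log2 fold change with IFNγ on the y axis. The 236 genes past the threshold lie above 0, and MYORG is the 1 gene past the threshold below it.

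The response spanned small and very large changes. In 21 of the 236 genes every untreated library held at most 3 counts, so that their fold change is given below only as the ratio of counts summed over the 3 libraries and scaled to library size, with its exact 95% interval for counting error, or as a lower bound for the 6 genes with no untreated count. In the other 215 the log2 fold change ran from 0.54 to 8.64 with a median of 1.94, and it lay under 1 in 40 genes, between 1 and 2 in 71, between 2 and 4 in 75, between 4 and 6 in 17 and above 6 in 12. The median over all genes tested was −0.01. By annotation, 207 of the 236 were protein-coding genes, 21 were long noncoding RNAs and 7 were pseudogenes. The induced gene with the highest mean CPM with IFNγ, a measure that does not allow for gene length, was WARS, the tryptophanyl-tRNA synthetase now called WARS1. WARS was at 81.2, 81.3 and 78.2 CPM untreated and 1957, 1737 and 1953 CPM with IFNγ in replicates 11, 12 and 13. Its mean was 23.5 times higher with IFNγ (log2 fold change 4.57 ± 0.10 SE, n = 3 per group, edgeR adjusted p = 7.91e-08), and the 2 groups lay far apart in every replicate.

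**Figure D2:**
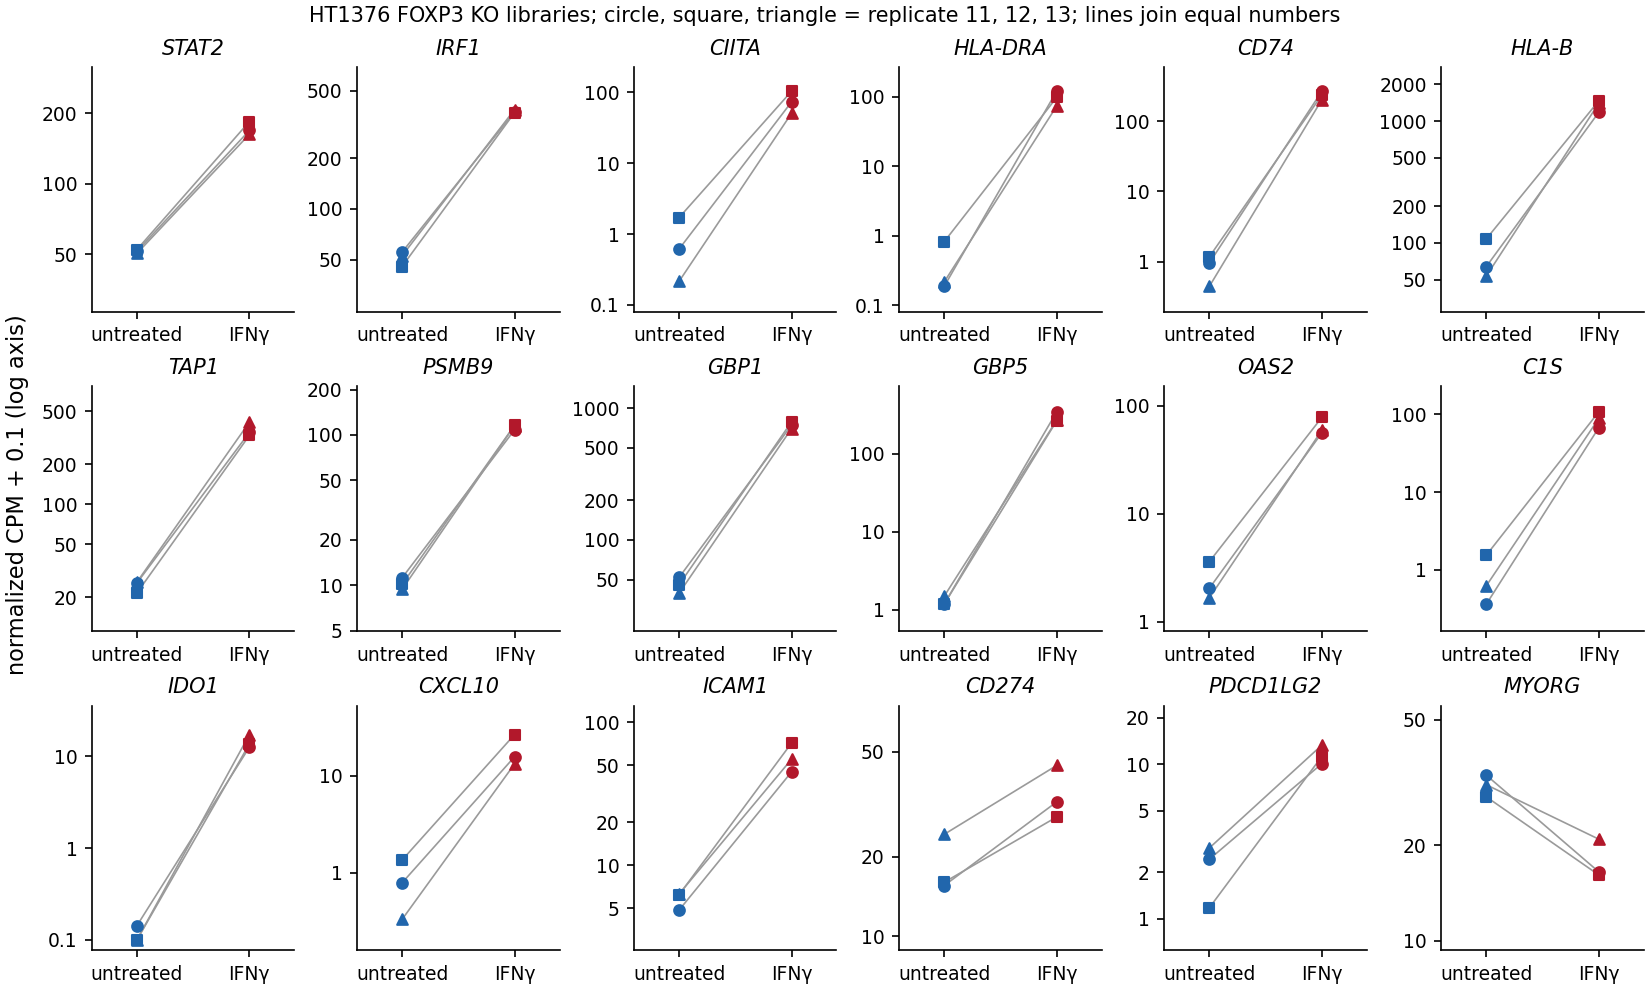
Normalized CPM (0.1 added, log axis) of 18 genes in each HT1376 FOXP3 KO library, untreated in blue and with IFNγ in red, with lines joining libraries of the same replicate number. In 17 of the 18 panels the 3 treated libraries sit above the 3 untreated ones, and in MYORG they sit below.

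The genes were read against 23 lists of gene families and processes, which together held 327 genes tested. Of these, 126 were higher with IFNγ (38.5%, against 0.978% of all genes tested), none was lower without the block, and with the block 163 were higher and 6 lower. The lists were drawn up with earlier results of these data known, and several hold known interferon targets. A high share of induced members was therefore likely from the start, and the share is a description, not a test. The median log2 fold change of the 327 genes was 0.64. The 126 genes made up 53.4% of the 236, and the other 110 belonged to no list. Some members have close copies (HLA, GBP, APOL, IFIT, OAS and C4 genes among them), and since the handling of multiply mapped reads is not stated, how counts were split between such copies is uncertain.

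**Figure D3:**
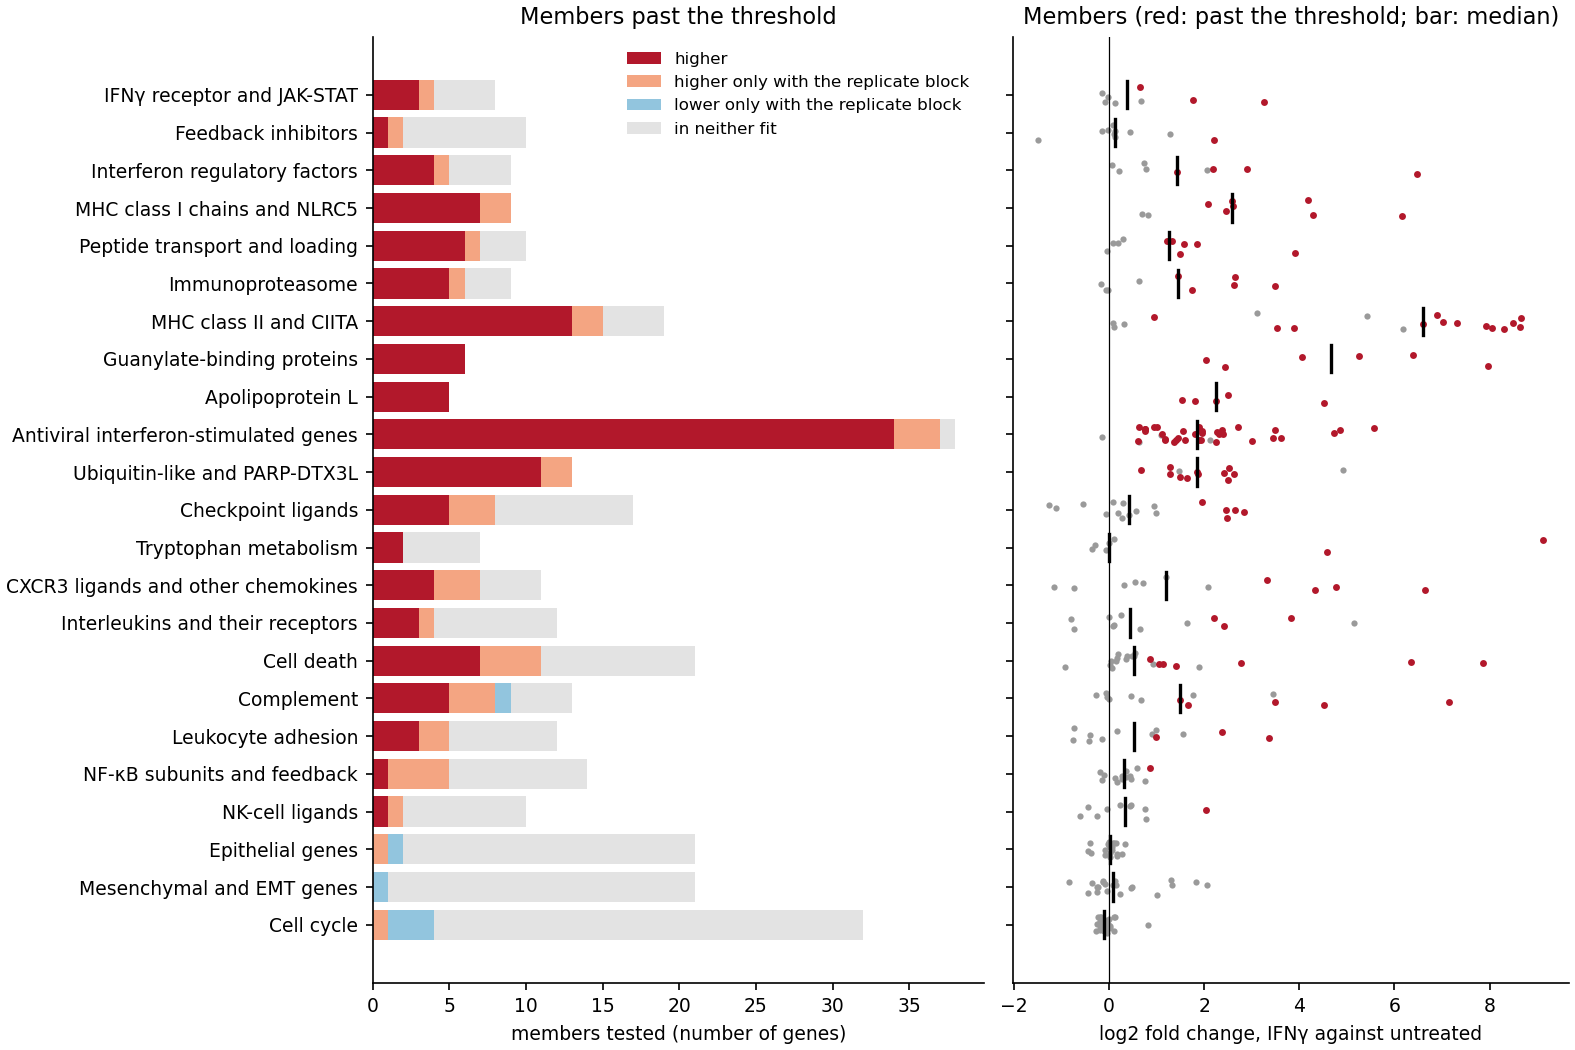
Left, for each of the 23 lists, how many members were tested and how many passed the threshold with IFNγ in HT1376 FOXP3 KO. Right, the log2 fold change of each member, red where it passed the threshold, with the list's median as a bar. The MHC class II list has the highest median, 6.6, and the epithelial, mesenchymal and cell cycle lists lie around 0 with no member past the threshold.

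The signaling pathway itself responded at the level of its transcription factors. Of 8 genes for the receptor, its kinases and the STATs, 3 rose, STAT2 and STAT3 among them. STAT2, a subunit of the ISRE-binding complex, was at 51.4, 52.2 and 50.3 CPM untreated and at 169, 184 and 163 CPM with IFNγ (log2 fold change 1.77 ± 0.11 SE, edgeR adjusted p = 2.54e-05), with no overlap between the groups. STAT3 rose by 0.64 ± 0.12 on the log2 scale, but lost its call whichever library was left out. The receptor chain IFNGR1 was at 39.5 ± 1.22 CPM (SD, n = 3) untreated and 35.1 ± 2.33 CPM with IFNγ, and the kinase JAK1 at 355 ± 7.50 and 331 ± 20.7 CPM, and neither passed the test with or without the block. JAK2, added after its values were seen, went from 10.6 to 16.7 CPM (edgeR adjusted p = 0.0977, and 0.0019 with the block).

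Among 9 interferon regulatory factors and related factors tested, 4 rose. IRF1, the main second-wave activator, was at 55.4, 45.5 and 52.7 CPM untreated and at 375, 371 and 387 CPM with IFNγ (log2 fold change 2.91 ± 0.11 SE, edgeR adjusted p = 6.86e-07), and the treated libraries lay close together. BATF2, a partner of IRF1, went from at most 0.173 CPM to 10.7, 13.9 and 12.1 CPM. IRF9 rose by 2.18 ± 0.27 and IRF7 by 1.44 ± 0.25 on the log2 scale, the latter in only 2 of the 6 fits without 1 library. IRF2, which competes with IRF1 for the same element, had means of 18.0 and 30.4 CPM and passed with the block alone (edgeR adjusted p = 0.0668 without it and 0.00011 with it). Of 10 feedback inhibitors tested, 1 rose: SOCS1, which blocks the JAKs, from 2.19, 2.06 and 2.36 to 10.8, 6.63 and 12.8 CPM (log2 fold change 2.22 ± 0.27 SE, edgeR adjusted p = 0.00284), with the treated libraries spread over a wider range than the untreated ones.

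MHC class II genes went from near silence to clear expression. Of 19 members tested, 13 rose, 15 with the block, and in 6 of the 13 the untreated libraries held at most 3 counts each. CIITA, the class II transactivator, was at 0.516, 1.61 and 0.115 CPM untreated and at 73.3, 104 and 50.6 CPM with IFNγ (log2 fold change 6.89 ± 0.56 SE, edgeR adjusted p = 0.000158). CD74, the invariant chain that guards the class II groove, went from 0.860, 1.07 and 0.346 to 264, 233 and 200 CPM (log2 fold change 8.31 ± 0.30 SE, edgeR adjusted p = 6.86e-07). HLA-DRA, the alpha chain of HLA-DR, went from 0.0860, 0.716 and 0.115 to 119, 96.9 and 72.6 CPM (log2 fold change 8.64 ± 0.47 SE, edgeR adjusted p = 1.10e-05). In each of these 3 genes the lowest treated library stood far above the highest untreated one. Untreated HLA-DRA and CIITA were highest in replicate 12, and over the 6 fits without 1 library their log2 fold changes ran from 8.06 to 9.88 and from 6.36 to 7.81.

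HLA-DRB1 had 4 counts over the 3 untreated libraries and 1766 over the treated ones, a ratio of 415 (95% interval 162 to 1523). The ratio was 261 for HLA-DPA1 (120 to 713), 257 for HLA-DPB1 (87.7 to 1250.1) and 129 for HLA-DQA1 (55.1 to 399). HLA-DOA had 1 count untreated and 469 with IFNγ, and HLA-DMB 4 and 404, and the intervals of their ratios began at 78.7 and 36.8. HLA-DQB1 was 132 times higher by means, at 38.3 ± 8.08 CPM with IFNγ. HLA-DMA, whose product exchanges peptides on class II molecules together with that of HLA-DMB, rose by 3.89 ± 0.39 on the log2 scale, and CTSS, the cathepsin that cleaves CD74, by 3.54 ± 0.23. RFX5, a subunit of the factor that recruits CIITA to class II promoters, was already present at 36.4 CPM and rose by 0.94 ± 0.12. Its partners RFXANK and RFXAP were at 13.3 and 8.91 CPM untreated and at 14.1 and 9.30 CPM with IFNγ and did not pass the test. HLA-DOB reached 0.670, 3.74 and 0.681 CPM and passed with the block alone (edgeR adjusted p = 0.367 without it and 0.0027 with it).

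MHC class I genes were expressed before treatment and rose together. Of 9 members tested, 7 passed, 9 with the block, with a median log2 fold change of 2.59. NLRC5, the class I transactivator, had the largest change, from 1.55, 1.07 and 1.27 to 93.5, 92.8 and 94.9 CPM (log2 fold change 6.16 ± 0.16 SE, edgeR adjusted p = 9.78e-08). HLA-B went from 63.8, 108 and 53.4 to 1179, 1463 and 1399 CPM (log2 fold change 4.18 ± 0.27 SE, edgeR adjusted p = 3.29e-05), and B2M, the light chain shared by class I molecules, from 264, 340 and 291 to 1605, 1993 and 1725 CPM (log2 fold change 2.59 ± 0.14 SE, edgeR adjusted p = 1.07e-05). Replicate 12 was the highest of its group in HLA-B and B2M both untreated and treated. HLA-F rose by 4.29 ± 0.25, HLA-E by 2.45 ± 0.14 and HLA-C by 2.07 ± 0.13 on the log2 scale. The pairing mattered for HLA-G, a class I molecule with few alleles, which was at 68.8, 166 and 43.2 CPM untreated and 124, 281 and 77.2 CPM with IFNγ: replicates differed more than treatment did, and the edgeR adjusted p was 0.999 without the block and 6.1e-08 with it.

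The machinery that feeds class I molecules rose with them. Of 10 genes for peptide transport and loading, 6 rose, and TAP1, a subunit of the peptide transporter, led with 25.5, 21.5 and 25.9 CPM untreated and 346, 329 and 413 CPM with IFNγ (log2 fold change 3.92 ± 0.12 SE, edgeR adjusted p = 4.39e-07). Its partner TAP2 rose by 1.85 ± 0.18, the trimming peptidases ERAP2 and ERAP1 by 1.58 ± 0.14 and 1.32 ± 0.09, and the loading factors TAPBPL and TAPBP by 1.49 ± 0.23 and 1.21 ± 0.11 on the log2 scale. TAPBPL passed in 3 of the 6 fits without 1 library. CALR, the chaperone calreticulin, had means of 679 and 815 CPM and passed with the block alone (edgeR adjusted p = 0.598 without it and 0.00075 with it). Of 9 proteasome genes tested, 5 rose, and these were the 3 catalytic subunits particular to the immunoproteasome and both subunits of its PA28 cap. PSMB9 went from 11.1, 10.03 and 9.28 to 108, 116 and 115 CPM (log2 fold change 3.50 ± 0.12 SE, edgeR adjusted p = 6.86e-07). PSMB10 rose by 2.66 ± 0.19, PSMB8 by 2.63 ± 0.14, PSME2 by 1.74 ± 0.13 and PSME1 by 1.46 ± 0.09. Of the constitutive catalytic subunits, PSMB7 was at 151 CPM untreated and 146 CPM with IFNγ and PSMB6 at 68.6 and 60.1 CPM, and neither passed the test.

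All 6 guanylate-binding proteins tested, GTPases that attack intracellular pathogens, and all 5 apolipoprotein L genes tested rose. GBP5 went from 1.08, 1.07 and 1.38 to 344, 264 and 268 CPM, 248 times higher by means (log2 fold change 7.97 ± 0.19 SE, edgeR adjusted p = 9.43e-08). GBP4 went from 5.81, 4.03 and 3.11 to 402, 314 and 374 CPM, and GBP1 from 51.7, 45.5 and 39.2 to 744, 788 and 700 CPM. GBP1 was thus the most abundant family member with IFNγ by CPM, a measure that does not allow for gene length. GBP6 rose by 5.26 ± 0.54, GBP2 by 2.43 ± 0.15 and GBP3 by 2.04 ± 0.13 on the log2 scale. The pseudogene GBP1P1 next to them had 6 counts untreated and 2667 with IFNγ, a ratio of 417 (95% interval 192 to 1138). APOL6 was the apolipoprotein L gene with the highest CPM, at 188 ± 12.4 CPM untreated and 882 ± 41.7 CPM with IFNγ. The log2 fold changes of the family were 4.52 ± 0.45 for APOL4, 2.51 ± 0.19 for APOL3, 2.25 ± 0.09 for APOL6, 1.81 ± 0.12 for APOL1 and 1.54 ± 0.12 for APOL2.

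The antiviral genes formed the largest list, with 34 of 38 tested higher and 37 with the block, at a median log2 fold change of 1.85. OAS2, a sensor of double-stranded RNA, went from 1.94, 3.49 and 1.56 to 55.9, 77.8 and 59.1 CPM (log2 fold change 4.87 ± 0.29 SE, edgeR adjusted p = 2.18e-05). IFI44L went from 0.215, 0.806 and 0 to 15, 20.6 and 5.61 CPM and kept its call in 4 of the 6 fits without 1 library. IFI27 rose by 4.72 ± 0.27, SAMD9L by 3.62 ± 0.13, TRIM22 by 3.49 ± 0.31 and IFIT3 by 3.45 ± 0.21 on the log2 scale. Among the abundant members, ADAR, which edits double-stranded RNA, rose by 0.77 ± 0.09 from 432 CPM, and EIF2AK2, the kinase PKR, by 0.76 ± 0.09 from 189 CPM. Of the IFITM genes, IFITM3 rose by 1.46 ± 0.12, and IFITM1 rose by 0.64 ± 0.12 but lost its call whichever library was left out. IFITM2 did not pass in either fit, with means of 43.0 and 38.4 CPM. Whether IFITM2 differs from IFITM1 and IFITM3 was not tested, and reads of these 3 similar genes may have been split between them.

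Of 13 genes for ubiquitin-like modification and the PARP–DTX3L group, 11 rose and all 13 with the block. PARP14 went from 217, 201 and 193 to 1137, 1236 and 1026 CPM (log2 fold change 2.50 ± 0.12 SE, edgeR adjusted p = 4.15e-06), and its neighbors PARP9 and DTX3L rose by 2.41 ± 0.13 and 1.64 ± 0.12. HERC6 rose by 2.63 ± 0.29, UBE2L6, the enzyme that conjugates ISG15, by 2.52 ± 0.10, UBA7, which activates ISG15, by 1.88 ± 0.20 and ISG15 itself by 1.85 ± 0.29 on the log2 scale. ISG15 was low, at 4.72 ± 1.65 CPM untreated and 16.6 ± 3.82 CPM with IFNγ, and passed in 3 of the 6 fits without 1 library. RNF213 rose by 0.67 ± 0.11, from 239 to 375 CPM, and passed in 1 of these 6 fits.

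Checkpoint ligands responded in part. Of 17 tested, 5 rose and 8 with the block. CD274 was at 15.5, 15.9 and 24.3 CPM untreated and at 32.2, 28.2 and 44.3 CPM with IFNγ, so that each replicate was higher with IFNγ and the groups did not overlap. The log2 fold change was 0.94 ± 0.21 SE, which did not pass without the block (edgeR adjusted p = 0.117) and passed with it (5.9e-06). PDCD1LG2, which encodes the other PD-1 ligand, PD-L2, went from 2.32, 1.07 and 2.77 to 9.98, 11.1 and 13.2 CPM (log2 fold change 2.46 ± 0.30 SE, edgeR adjusted p = 0.00287). The butyrophilins BTN3A3, BTN3A2 and BTN3A1, which are read by γδ T cells, rose by 2.83 ± 0.19, 2.48 ± 0.17 and 1.95 ± 0.14, and TNFRSF14, the receptor HVEM, by 2.64 ± 0.44. TNFRSF14 passed in 3 of the 6 fits without 1 library. CD47, the signal against phagocytosis, had means of 41.9 and 81.8 CPM and VSIR, the ligand VISTA, means of 64.7 and 85.7 CPM, and both passed with the block alone (edgeR adjusted p = 0.0614 and 0.999 without it, 5.1e-08 and 0.0014 with it).

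IDO1, the enzyme that breaks down tryptophan to kynurenine, was switched on, from 0.0430, 0 and 0 to 12.5, 13.6 and 17.2 CPM. It had 1 count over the untreated libraries and 845 over the treated ones, a ratio whose 95% interval began at 142, and with WARS it made up the 2 of 7 genes of tryptophan metabolism that rose. Of 11 chemokines tested, 4 rose, 7 with the block. CXCL10 went from 0.688, 1.25 and 0.230 to 15.7, 26.6 and 13.2 CPM (log2 fold change 4.78 ± 0.49 SE, edgeR adjusted p = 0.000839). CXCL9 had 1 count untreated and reached 1.21, 5.03 and 1.65 CPM with IFNγ, and CXCL11 reached 2.41, 5.56 and 4.41 CPM but passed in none of the 6 fits without 1 library. Replicate 12 was the highest treated library for all 3 of these CXCR3 ligands. CX3CL1 rose by 4.32 ± 0.82 on the log2 scale to 2.26 CPM, with 1 of the 6 such fits keeping its call and a log2 fold change of 3.76 to 8.27 among them. CCL5 and CXCL16 passed with the block alone, with means of 2.37 and 9.67 CPM and of 28.9 and 46.8 CPM. Of 12 interleukins and interleukin receptors tested, IL32 (log2 fold change 3.82 ± 0.54), IL15 (2.43 ± 0.44) and its presenting receptor IL15RA (2.21 ± 0.35) rose, and the last 2 passed in 1 and 2 of the 6 fits without 1 library.

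Of 21 cell death genes tested, 7 rose, 11 with the block. XAF1, an antagonist of the inhibitor XIAP, went from 0.903, 2.51 and 0.288 to 89.4, 97.8 and 78.0 CPM (log2 fold change 6.35 ± 0.47 SE, edgeR adjusted p = 8.32e-05). ZBP1, a sensor of Z-form nucleic acid with no count in the untreated libraries, was at least 26-fold higher against a floor of 3 counts over the group, and MLKL, the effector of necroptosis, rose by 2.77 ± 0.32 on the log2 scale. FAS rose by 1.4 ± 0.22 and GSDMB by 1.13 ± 0.21, and they passed in 3 and 1 of the 6 fits without 1 library. TNFSF10, which encodes TRAIL, was at 118, 351 and 78.1 CPM untreated and 242, 597 and 179 CPM with IFNγ, and as with HLA-G the replicates differed more than the treatment did (edgeR adjusted p = 0.999 without it and 1.5e-08 with it).

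Of 13 complement genes, 5 rose. C1S, a protease of the first complement component, went from 0.258, 1.43 and 0.519 to 67.3, 108 and 88.8 CPM, 120 times higher by means (log2 fold change 7.14 ± 0.43 SE, edgeR adjusted p = 2.13e-05), and its partner C1R rose by 4.51 ± 0.22. C4A rose by 3.49 ± 0.55 to 1.71 CPM, C3 by 1.5 ± 0.21 to 47.0 CPM, and SERPING1, which inhibits C1R and C1S, by 1.67 ± 0.18 to 77.3 CPM. C4A passed in 2 and C3 in 3 of the 6 fits without 1 library. CD59, a membrane regulator that stops lysis, had means of 434 and 353 CPM and was lower with the block alone (edgeR adjusted p = 0.895 without it and 0.0049 with it). Of 12 adhesion genes, ICAM1, LGALS3BP and MUC16 rose, the last in only 2 of the 6 fits without 1 library. ICAM1, the ligand of the leukocyte integrin LFA-1, went from 4.73, 6.09 and 6.17 to 44.8, 71.4 and 55.0 CPM (log2 fold change 3.37 ± 0.21 SE, edgeR adjusted p = 3.04e-05). MUC1 had means of 21.9 and 42.8 CPM and CEACAM1 of 2.10 and 5.88 CPM, and both passed with the block alone (edgeR adjusted p = 0.513 and 0.760 without it, 1.4e-06 and 0.001 with it).

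In the remaining lists few genes passed. Of 14 NF-κB subunits and feedback genes, BIRC3 alone rose, by 0.86 ± 0.14 on the log2 scale, and the block added 4, among them TNFAIP3 (44.4 and 74.3 CPM) and NFKBIA (98.5 and 124 CPM). Of 10 ligands of NK cell receptors, MICB rose by 2.04 ± 0.35, and MICA passed with the block alone, with means of 47.7 and 79.9 CPM. BIRC3 passed in 3 and MICB in 1 of the 6 fits without 1 library. None of 21 epithelial, 21 mesenchymal and 32 cell cycle genes tested passed without the block, where the unadjusted count over all genes was 946 higher and 349 lower, and the medians of these lists were 0.03, 0.09 and −0.11 on the log2 scale. With the block, 1 epithelial and 1 cell cycle gene were higher, and 1 epithelial, 1 mesenchymal and 3 cell cycle genes were lower, among them MKI67 (1707 and 1476 CPM) and TOP2A (782 and 670 CPM). ZEB1, an EMT transcription factor, was at 0.101 CPM untreated and 0.284 CPM with IFNγ and did not pass in either fit.

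The 110 induced genes outside the lists held further regulators, and those named here without a place among the largest changes were picked after their values were seen. ETV7, an ETS family repressor, went from 0.344, 0.627 and 0.403 to 18.0, 16.8 and 21.6 CPM. The noncoding RNA HCP5 in the MHC rose by 6.23 ± 0.28 on the log2 scale, and USP30-AS1 had 3 counts untreated and 296 with IFNγ, a ratio of 92.6 (95% interval 31.4 to 452). GRIP2 had 5 counts untreated and 2.01, 9.52 and 2.53 CPM with IFNγ, a ratio of 37.0 (15.6 to 115), and kept its call in 4 of the 6 fits without 1 library. Strand-specific counting is not stated, so reads of HCP5 and USP30-AS1 cannot be told apart from those of genes they overlap. Both chains of the interleukin 12 receptor rose, IL12RB1 by 4.80 ± 0.28 and IL12RB2 by 2.74 ± 0.33. The DNA sensor AIM2 rose by 4.51 ± 0.20, the deaminase APOBEC3G had 3 counts untreated and 230 with IFNγ, and the nuclear body genes SP110 and SP100 rose by 1.41 ± 0.12 and 1.23 ± 0.13.

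Some induced genes were neighbors on the chromosome. In positions of GENCODE 44 on GRCh38, with induced genes at most 500000 bases apart joined, 79 of the 236 (33.5%) fell in 16 groups of 3 or more. The share for equally large sets of other genes was not computed. Each group runs from its first to its last induced gene, so the shares of genes tested within a group are high by construction. The largest lay in the MHC at chr6:31268749-33314284, where 20 of 101 genes tested rose, from HLA-C to TAPBP. On chromosome 1 at chr1:89006679-89426243, 8 of 9 genes tested rose, 6 of them GBP genes and the other 2 pseudogenes. At chr22:35648446-36267530, 5 of 8 rose, all apolipoprotein L genes, and at chr14:24136163-24180257, 4 of 9 rose, PSME1, PSME2, IRF9 and REC8. No other gene tested lay within the edges of 3 small groups, OAS1, OAS3 and OAS2 at chr12:112905856-113011723, PARP9, DTX3L and PARP14 at chr3:122527924-122730840, and CXCL9, CXCL10 and CXCL11 at chr4:76001275-76041415.

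The elements that the pathway uses were looked for in RefSeq promoters of GRCh38.p14, from 250 bases before the start to 50 after it. The letters searched were TTCNNNGAA for GAS and GAAANNGAAA for the ISRE, each on both strands, and the 2 can overlap. Of 165 induced genes with a promoter in the table, 59 held an ISRE match (35.8%), against 381 of 13001 genes tested (2.93%). A GAS match was held by 24 of the 165 (14.5%), against 860 of the 13001 (6.61%), and either by 72 (43.6%), against 9.20%. Of 185 genes lower with the block and in the table, 1 held an ISRE match (0.541%) and 8 a GAS match (4.32%). The windows below, on the strand of each gene and with the match in capitals, belong to induced genes whose values are given above, and show the element for 1 transcription factor, 2 class I pathway genes, 1 GTPase and 1 adhesion molecule. They were picked from the matches found and not by the size of the increase. GBP4 and IFI44L, among the largest increases, also held an ISRE match and are not shown.
IRF1, GAS, chr5:132490878-132490907, minus strand: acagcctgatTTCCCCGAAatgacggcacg
ICAM1, GAS, chr19:10271035-10271064, plus strand: ggcgcgaggtTTCCGGGAAagcagcaccgc
B2M, ISRE, chr15:44711363-44711392, plus strand: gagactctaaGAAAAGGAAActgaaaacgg
PSMB10, ISRE, chr16:67936852-67936881, minus strand: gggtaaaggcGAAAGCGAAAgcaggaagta
GBP1, ISRE, chr1:89065316-89065345, minus strand: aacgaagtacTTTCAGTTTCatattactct

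In IRF1 the match ended 116 bases before the transcription start and in ICAM1 67 bases before it. In PSMB10 it ended 12 bases before the start, and in B2M 135 bases and in GBP1 118 bases before it. The GBP1 match lies on the strand opposite to the gene. B2M held a second ISRE match 6 bases further on, so that both matches overlap. These are matches of letters and do not show that a factor bound there.

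Decreases were few and small. MYORG, which encodes a glycoside hydrolase, was the 1 gene lower without the block, at 33.2, 28.4 and 31.0 CPM untreated and 16.4, 16 and 20.8 CPM with IFNγ (log2 fold change −0.77 ± 0.14 SE, edgeR adjusted p = 0.0339), and its call held in 1 of the 6 fits without 1 library. The 234 genes lower with the block had a median log2 fold change of −0.40, 14 of them were below −1, and in 106 the treated libraries lay below all untreated ones. The genes named next were picked after their values were seen, from those with the smallest blocked p. FBN1 and FBN2, which encode fibrillins of extracellular microfibrils, had means of 966 and 1267 CPM untreated and of 757 and 906 CPM with IFNγ (edgeR adjusted p with the block 9.5e-05 and 8.3e-07). MFAP5, another microfibril component, was at 74.6, 77.6 and 106 CPM untreated and 38.1, 52.8 and 62.4 CPM with IFNγ. CD24, ODC1 and CGA had means of 29.3, 59.6 and 92.3 CPM untreated and of 16.3, 35.7 and 56.5 CPM with IFNγ. In each of these 6 genes every replicate was lower with IFNγ than its untreated library of the same number, which the choice by the blocked p favors.

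The same contrast in HT1376 CT, which uses none of these libraries, was set beside that of the KO line. The HT1376 CT libraries held 4490684 to 39270042 counts. Calls depend on depth and on the spread between libraries, and neither was matched between the lines. The part of this in the overlap of calls was not tested. In HT1376 CT, 862 genes were higher (3.53% of 24416 tested) and 445 lower (1.82%). Of the 236 genes induced in the KO line, 226 (95.8%) were also called higher in HT1376 CT, and these were 26.2% of the 862. All but 1 of the 236 had a positive log2 fold change in HT1376 CT. The exception, NR2F1, an orphan nuclear receptor, rose by 0.61 ± 0.11 in the KO line, lost that call whichever library was left out, and had −0.95 in HT1376 CT (edgeR adjusted p = 0.302). The other 9 genes not called in HT1376 CT were C3, BIRC3, CLEC7A, GNB4, DAPP1, RAB27B, TRIM31, OR52K3P and AL356056.2, and 5 of the 10 genes in all passed in none of the 6 fits without 1 library of the KO line.

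The log2 fold change was smaller in the KO line than in HT1376 CT for 191 of the 236 genes and larger for 45, with medians of 2.23 and 2.71. Of the 862 genes higher in HT1376 CT, 833 were tested in the KO line, where 789 had a positive log2 fold change and 489 were higher with the block, at a median of 0.68 against 1.47 in HT1376 CT. Of the 445 genes lower in HT1376 CT, 441 were tested in the KO line. None of them was called lower there without the block (349 genes in all were lower at an unadjusted p under 0.05), 77 were with it, and 381 had a negative log2 fold change, at a median of −0.17 against −0.74. These medians describe genes chosen by their call in one line, and they are not a test of the lines.

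**Figure D4:**
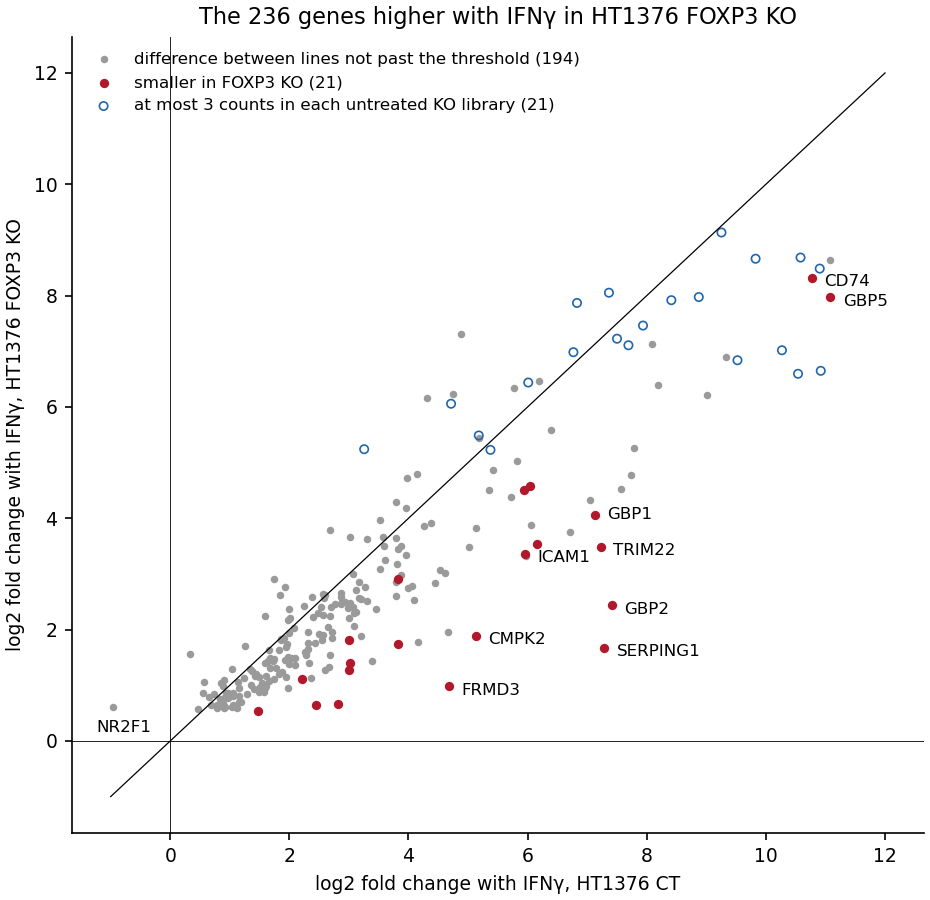
The 236 genes higher with IFNγ in HT1376 FOXP3 KO, with the log2 fold change in HT1376 CT on the x axis and in HT1376 FOXP3 KO on the y axis, and the line of equal response. Of the points, 191 lie below the line and 45 above it, and open blue circles mark the 21 genes with at most 3 counts in each untreated KO library, whose position depends on the fitted prior count.

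The difference between the 2 responses was tested gene by gene over the 12 libraries. The log2 fold change of 30 genes was smaller in the KO line than in HT1376 CT (0.108% of 27806 tested), and that of 1 gene, FREM2, was larger (0.00360%). With the block, 409 were smaller and 458 larger in the KO line. Of the 30 genes, 21 were still called higher in the KO line, and 16 belonged to a family list. For 19 of the 30 the untreated mean was higher in the KO line than in HT1376 CT, more than 2 times higher for 13, and for 24 the mean with IFNγ was lower in the KO line.

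GBP2 was at 83.7 ± 10.9 CPM in untreated KO cells against 1.02 ± 0.229 CPM in untreated HT1376 CT cells, and at 445 ± 65.4 against 173 ± 27.1 CPM with IFNγ (difference in log2 fold change −4.98, edgeR adjusted p = 4.51e-08). SERPING1 was at 24.7 against 0.451 CPM untreated and at 77.3 against 76.4 CPM with IFNγ, so that its treated levels were close while its untreated levels were not. ICAM1 had 5.66 against 10.3 CPM untreated and 57.1 ± 13.4 against 628 ± 186 CPM with IFNγ. CTSS reached 25.3 against 266 CPM, CD74 232 against 1253 CPM and RNF213 375 against 2149 CPM with IFNγ, from untreated means of 2.25 and 3.56, 0.760 and 0.632, and 239 and 309 CPM. IRF1 reached 378 ± 8.16 against 879 ± 27.8 CPM from 51.2 and 62.6 CPM (difference −0.93, edgeR adjusted p = 0.017), and WARS 1882 against 4844 CPM from 80.3 and 74.8 CPM. In bulk libraries fewer responding cells and less RNA per cell cannot be told apart.

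**Figure D5:**
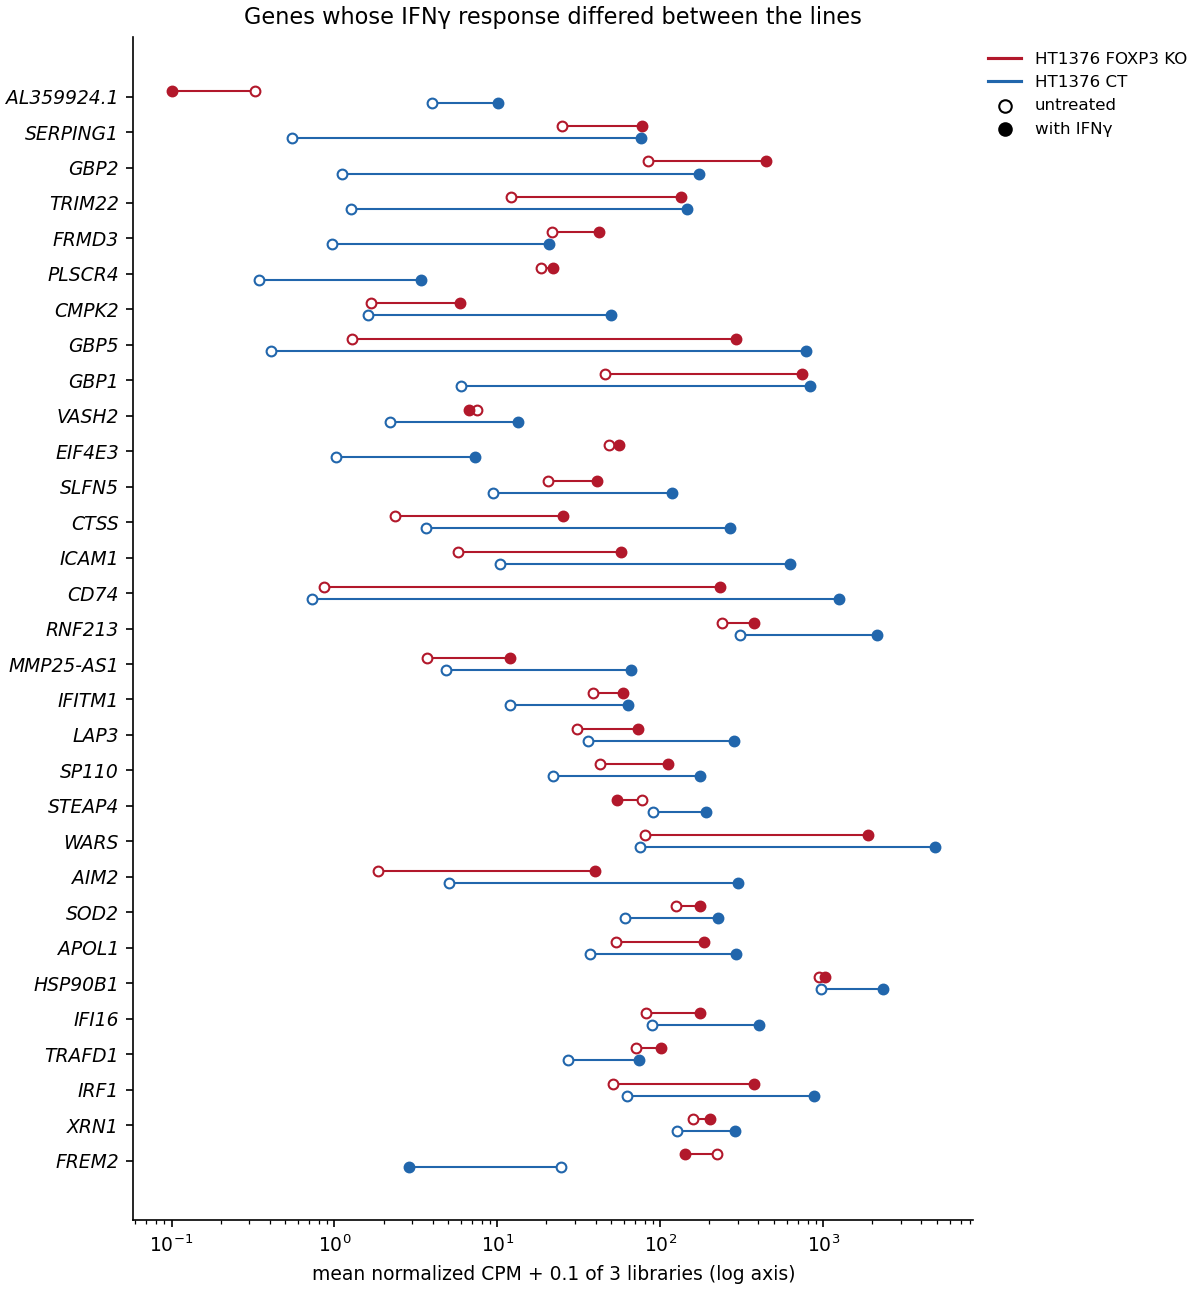
Mean normalized CPM (0.1 added, log axis) of the genes whose IFNγ response differed between the lines, with HT1376 FOXP3 KO in red and HT1376 CT in blue, open circles for untreated and filled circles for IFNγ, 3 libraries each. Genes such as SERPING1 and GBP2 start higher in HT1376 FOXP3 KO, and ICAM1, CTSS and RNF213 end lower with IFNγ.

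Within families, the test of the difference called CD74 and CTSS among the 19 class II genes, and it called GBP1, GBP2 and GBP5 among the 6 guanylate-binding proteins, where the family medians were 4.66 in the KO line and 7.60 in HT1376 CT. No gene of the class I, peptide loading, immunoproteasome, checkpoint and chemokine lists was among the 31, where 851 genes were larger and 876 smaller in the KO line at an unadjusted p under 0.05. With the block, 5 class I genes, 6 loading genes, 1 immunoproteasome gene, 3 checkpoint ligands and 2 chemokines were smaller in the KO line, and 1 class I gene and 1 checkpoint ligand were larger. Of the antiviral genes, 17 were smaller and 1 larger with the block. Of the mesenchymal, cell cycle and epithelial genes, 8, 6 and 3 were larger and 0, 0 and 1 smaller. The medians of these last lists in HT1376 CT were −0.94, −0.27 and −0.21 on the log2 scale. For CD274 the log2 fold changes were 0.94 in the KO line and 1.02 in HT1376 CT, and the difference was −0.09 (edgeR adjusted p = 0.9999, and 0.943 with the block). Its means were 18.6 and 34.9 CPM in the KO line and 85.3 ± 36.7 and 171 ± 41.5 CPM in HT1376 CT, so the KO line held less CD274 RNA in both states. FREM2, an extracellular matrix protein of basement membranes, was lowered by IFNγ in HT1376 CT from 24.4 to 2.78 CPM, and in the KO line it was at 226, 195 and 245 CPM untreated and at 155, 119 and 150 CPM with IFNγ (log2 fold change −0.63 ± 0.12 SE, edgeR adjusted p = 0.059 without the block and 1.8e-06 with it).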

How the data were processed

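Total RNA libraries (KAPA RNA HyperPrep with RiboErase, paired-end) of HT1376 FOXP3 KO and HT1376 CT, untreated or with IFNγ, were analysed, 3 per group. The authors deposited raw counts per gene: reads were aligned to GRCh38 (Ensembl 103) with STAR (version 2.7.11a per the submitters' processing notes), Mycoplasma reads were removed with Kraken and counts were made with htseq-count; strand and multi-mapping settings are not given in the sources used here. Of 60666 genes, 34018 had a count in the KO libraries (9054262 to 30680995 counts each), and genes with at least 10 counts in total were tested. Depth limits the precision for genes with few counts.

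Counts were scaled by TMM and tested with edgeR 4.0.16 (glmQLFit, glmQLFTest) in R 4.3.3 within each line, and for the difference over 12 libraries, at a Benjamini-Hochberg adjusted p under 0.05. Same-numbered KO libraries deviated together (r across 24131 genes 0.197 to 0.291, against −0.208 to −0.0018 for other pairs), so the replicate block, with the bias-adjusted deviance, is given beside results it changes. Deviations were taken from group means, so positive values for equal numbers bring negative values for other pairs, which are not separate evidence. The pairing comes from the numbers in the labels. Alternatives were DESeq2 1.42.0, other scalings, filters and thresholds, 1 fit of 12 libraries and leaving out each library. Where untreated libraries held at most 3 counts each, the ratio of summed counts is given with an exact (Clopper-Pearson) 95% interval, and with no untreated count a lower bound against 3 counts over the group. The code was tested on simulated data.

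The comparison, the lists and the members were chosen with earlier results of these data known. Named genes were those the study names for these data, the 15 largest increases and decreases past the threshold without overlap, the 10 most abundant called genes with untreated libraries at the floor, up to 5 called and 3 uncalled members per list, and for the difference the 5 largest per direction and list members. Others are marked in the text, and HLA-E, HLA-C and further called list members named beyond these were added after their values were seen. Some genes that this rule names are not reported here. GENCODE 44 gave positions.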

Additional observations from a re-analysis of the deposited data

Results flagged for a closer look

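The test of the difference over the 12 libraries called 30 genes smaller and 1 larger in the KO line (edgeR quasi-likelihood test, adjusted p under 0.05). Only a part of them is listed here: list members, the largest differences, and SP110 and AIM2, whose rise is given above. Values are the log2 fold change of HT1376 FOXP3 KO minus that of HT1376 CT. Among the guanylate-binding proteins the difference was −4.98 for GBP2, −3.13 for GBP5 and −3.08 for GBP1. Among antiviral genes it was −3.73 for TRIM22, −3.25 for CMPK2, −1.81 for IFITM1 and −1.11 for IFI16. It was −5.62 for the complement inhibitor SERPING1, −2.59 for ICAM1 and −1.19 for APOL1. In the class II group it was −2.48 for CD74 and −2.63 for CTSS. It was −2.15 for RNF213, −1.72 for the aminopeptidase LAP3, −1.46 for WARS and −0.93 for IRF1. Outside the lists it was −3.72 for FRMD3, −1.61 for SP110, −1.44 for AIM2 and 2.33 for FREM2. For the noncoding RNA AL359924.1 it was −6.47, from means of 0.226 CPM untreated and 0 CPM with IFNγ in the KO line, so this value depends on the fitted prior count. Untreated means of GBP1, GBP2, GBP5, SERPING1, TRIM22, IFITM1, FRMD3 and FREM2 were more than 2 times those of HT1376 CT, and the part of this in their differences was not tested. Whether the absence of FOXP3 or another difference between the 2 clones goes with these values cannot be told apart.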

How the results depend on the processing

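In the KO line the higher genes numbered 235 with RLE scaling, 227 with upper quartile scaling, 236 with filterByExpr, 343 with no filter, 331 with DESeq2, 268 with all 12 libraries in 1 fit, 196 with an absolute log2 fold change over 1, and 161 to 206 without 1 library, and no gene called in the KO line changed sign in any of these. The replicate block moved the counts most, to 947 higher and 387 lower in the default fit and 793 and 234 with the bias-adjusted deviance, or 329 and 14 with a log2 fold change over 1 as well, and among the genes named for the KO line it changed no call other than those given with it. The 1 lower gene became 0 with the fold threshold, 5 with 12 libraries, 11 with DESeq2, 2 with filterByExpr, 12 with no filter, 2 with upper quartile scaling, 9 without both libraries numbered 12, and 0 to 1 without 1 library. In HT1376 CT the counts were 2118 higher and 2412 lower with the block in the default fit, 2080 and 2019 in the blocked fit of the text, 570 and 109 past a log2 fold change of 1, 982 lower with no filter, and 578 to 793 higher and 183 to 408 lower without 1 library. For the difference, 50 larger and 110 smaller were called with DESeq2, 143 and 151 with no filter, 748 and 572 with the block in the default fit, 458 and 409 in the blocked fit of the text, 3 larger with filterByExpr, RLE or upper quartile scaling, and 1 to 6 larger and 14 to 27 smaller without 1 library. Without 1 library the difference for CD274 ran from −0.33 to 0.279 and was positive in 5 fits (the smallest 0.0117), PSMB7 in the KO line ran from −0.0904 to 0.0735 and was positive in 2, and RFXANK ran from −0.137 to 0.269 and was negative in 1, and none of these passed a test. The cause of these changes was not tested.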
